A study of Mus musculus with 25 samples.

Results

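The 4 genes described here, Slc2a1, Slc2a3, Slc2a5 and Slc2a6, encode hexose transporters of the Slc2a family, and they were taken by name from the 22439 genes of the deposited count matrices. They were chosen with their levels by cell type, cluster and time point known, so those levels are given as a description, with no test. The 4 genes together held 23292 unique molecular identifiers (UMIs, each a captured RNA molecule): 14384 of Slc2a1, 578 of Slc2a3, 2560 of Slc2a5 and 5770 of Slc2a6.

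Hexoses cross membranes through facilitative carriers of the Slc2a (GLUT) family, which let sugar run down its gradient without using energy. Slc2a1 (GLUT1) is the widespread carrier for basal glucose uptake, and Slc2a3 (GLUT3) is a glucose carrier of high affinity known from neurons and white blood cells. Slc2a5 (GLUT5) carries fructose and is a known marker of microglia in the brain and spinal cord, and Slc2a6 (GLUT6) resides largely on lysosomal membranes. Once in the cell, glucose is phosphorylated by hexokinases and enters glycolysis, which myeloid cells are known to raise when activated.

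Data came from 10x Genomics 3′ droplet libraries of myeloid cells, sorted for yellow fluorescence (YFP) from a 5 mm segment of mouse spinal cord. There were 25 libraries and 30958 cells, from laminectomy alone (Ctrl, 2 libraries, in which the vertebral arch is removed and the cord left intact) and from spinal cords taken 1, 2, 3, 10 or 21 days after injury, called D1 (5 libraries), D2 (4), D3 (7), D10 (5) and D21 (2). All mice carried Cx3cr1CreERT2, an inducible Cre at the locus of the fractalkine receptor Cx3cr1. The 12 mixed libraries hold all YFP-positive cells of Cx3cr1CreERT2 mice, while Cx3cr1CreERT2:R26tdTomato mice, with a red reporter that Cre switches on, gave 5 resident libraries (red and YFP) and 7 infiltrating libraries (YFP alone). Sort and strain are therefore split the same way. Each library pools 1 to 3 mice, and the ages of the mice are not given in the sources used here. D3_conflict 1, a D3 library with conflicting sort labels, was kept out of the values by time point, the shares of cells and the main fits. Totals over all cells of a cell type or cluster include it. D2_infiltrating 1 is labelled female, while the deposited cell table gives its cells the sex code of the male libraries; the label was used. The Ctrl group is 1 female mixed library and 1 male resident library, and D21 is 1 mixed and 1 infiltrating library.

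Libraries held 155 to 3800 cells and 486649 to 33204422 UMIs, with a median of 1577 to 11233 UMIs per cell. They lay in 7 sequencing pools, and 127 cell barcodes occurred in more than 1 library (254 cells). The deposited table gives cell type codes without names. Code 1 (13289 cells) held all 9 of 9 microglia markers at 20 CPM (UMIs of a gene per 1000000 UMIs) or more and at least 2-fold above the other cells, and is called microglia. Code 2 (12841 cells), called macrophages with monocytes included, held 5 of 8 markers of monocytes and 6 of 9 of macrophages. Code 3 (2712 cells) passed 6 of 8 dendritic cell markers, code 4 (2116 cells) passed 7 of 7 neutrophil markers, and they are called dendritic-like and neutrophil-like cells.

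On the GRCm38 build with GENCODE M21 gene models, Slc2a1 lies at chr4:119108711-119137983 on the plus strand, Slc2a3 at chr6:122727809-122801640 on the minus strand, Slc2a5 at chr4:150119283-150144169 on the plus strand and Slc2a6 at chr2:27021363-27027998 on the minus strand. No other annotated gene overlaps Slc2a5 or Slc2a6. Slc2a3 contains the processed pseudogene Gm4482 on its own strand, and Slc2a1 overlaps 2 antisense genes and a microRNA, so the counts of these 2 genes could include or lose reads of those neighbours. Levels below are in CPM, the gene's UMIs scaled to the total UMIs of the summed cells of 1 cell type in 1 library, for sums of at least 20 cells. A 3′ UMI count does not grow with transcript length, so levels of different genes are set side by side on this scale.

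Slc2a5, the fructose carrier, was the leading member in uninjured microglia and near 0 at D1. It stood at 226 CPM in the mixed and 203 CPM in the resident Ctrl library. At D1 the 3 mixed libraries held 4.16, 1.71 and 3.02 CPM. The control libraries lay far above all 15 injured sums, and the mean at Ctrl (215 ± 15.997 CPM, SD, n = 2) was 72.5 times the mean at D1 (2.96 ± 1.22 CPM, n = 3).

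Part of the level was back at D2. At D2 the mixed libraries held 17.5 and 7.40 CPM, the latter from 1 UMI in 23 cells, and the resident library 35.0 CPM. At D3 the 5 values ran from 13.9 to 37.1 CPM (25.6 ± 8.69, n = 5), and at D10 they were 36.6, 25.0 and 19.96 CPM (27.2 ± 8.51, n = 3). The single D21 mixed library held 19.6 CPM. All 12 sums from D2 to D21 lay above all 3 D1 sums and at or below 37.1 CPM, and the values of D2, D3 and D10 overlapped, so no order among those days stood out of the spread. From D3 to D10 the fitted log2 change was 0.18, and -1.26 (SE 0.66) with sequencing pool as a term. The fitted log2 change against Ctrl was -5.71 (SE 0.44) at D1 and, for D2, D3, D10 and D21 in turn, -2.84 (SE 0.38), -2.72 (SE 0.35), -2.54 (SE 0.36) and -2.38 (SE 0.54), and that from D1 to D3 was 2.99 (SE 0.38). With sequencing pool as a term the D3 change against Ctrl was -1.25 (SE 0.68). In the mixed libraries alone with a sex term the D10 change against Ctrl was -0.82 (SE 1.43).

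Slc2a1, the basal glucose carrier, was highest in microglia at D1, lowest at D3 and high again at D10. Ctrl libraries held 36.4 CPM (mixed) and 46.4 CPM (resident), and D1 libraries 57.1, 80.4 and 68.7 CPM. D2 libraries held 31.1, 22.2 and 42.8 CPM, and the 5 D3 libraries ran from 15.2 through a median of 24.7 to 28.3 CPM. D10 libraries held 50.7, 55.3 and 51.9 CPM, and the D21 library 62.9 CPM. The 3 D1 values lay above both Ctrl values, the 5 D3 values below them, and the 3 D10 values above all D2 and D3 values, while D2 overlapped both Ctrl and D3. From high to low the means ran D1 (68.7 ± 11.6 CPM), D10 (52.6 ± 2.43), Ctrl (41.4 ± 7.03), D2 (32.0 ± 10.4) and D3 (22.9 ± 5.85), with no overlap between D1 and D10 or between D10 and Ctrl.

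Slc2a6, the lysosomal member, was highest from D2 to D10, days on which Slc2a1 went from low to high. Ctrl libraries held 13.9 and 27.5 CPM, and D1 libraries 24.9, 18.2 and 8.36 CPM, inside or below the Ctrl range. D2 libraries held 48.6, 66.6 and 97.4 CPM, and the 5 D3 libraries ran from 53.4 through a median of 92.4 to 113 CPM. D10 libraries held 50.04, 41.8 and 75.8 CPM and the D21 library 30.3 CPM. All 11 sums of D2, D3 and D10 lay above all Ctrl and D1 sums. The D3 mean (91.7 ± 24.6 CPM, n = 5) was 4.42 times the Ctrl mean (20.7 ± 9.60, n = 2) and 5.34 times the D1 mean (17.2 ± 8.34, n = 3), and D2, D3 and D10 overlapped.

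Slc2a3, the high-affinity glucose carrier, was scarce in microglia at every time point. The 17 sums held 1.09 to 7.40 CPM from 1 to 37 UMIs each, with means of 2.60 ± 1.38 CPM at Ctrl, 3.096 ± 0.737 at D1, 5.89 ± 1.37 on the next day and 3.52 ± 2.71 at D3. D2 lay above Ctrl, D1 and D10 and overlapped D3. Neuron markers in the same sums moved with it, at 37.0 to 74.4 CPM at D2 against 14.6 and 15.6 CPM at Ctrl, 2.55 to 17.4 CPM at D1, 1.69 to 33.3 CPM at D3 and 11.0 to 14.7 CPM at D10, and their part in the Slc2a3 level was not tested. Fitted log2 changes against Ctrl lay between -0.61 (SE 0.87, D21) and 1.36 (SE 0.62, D2).

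**Figure D1:**
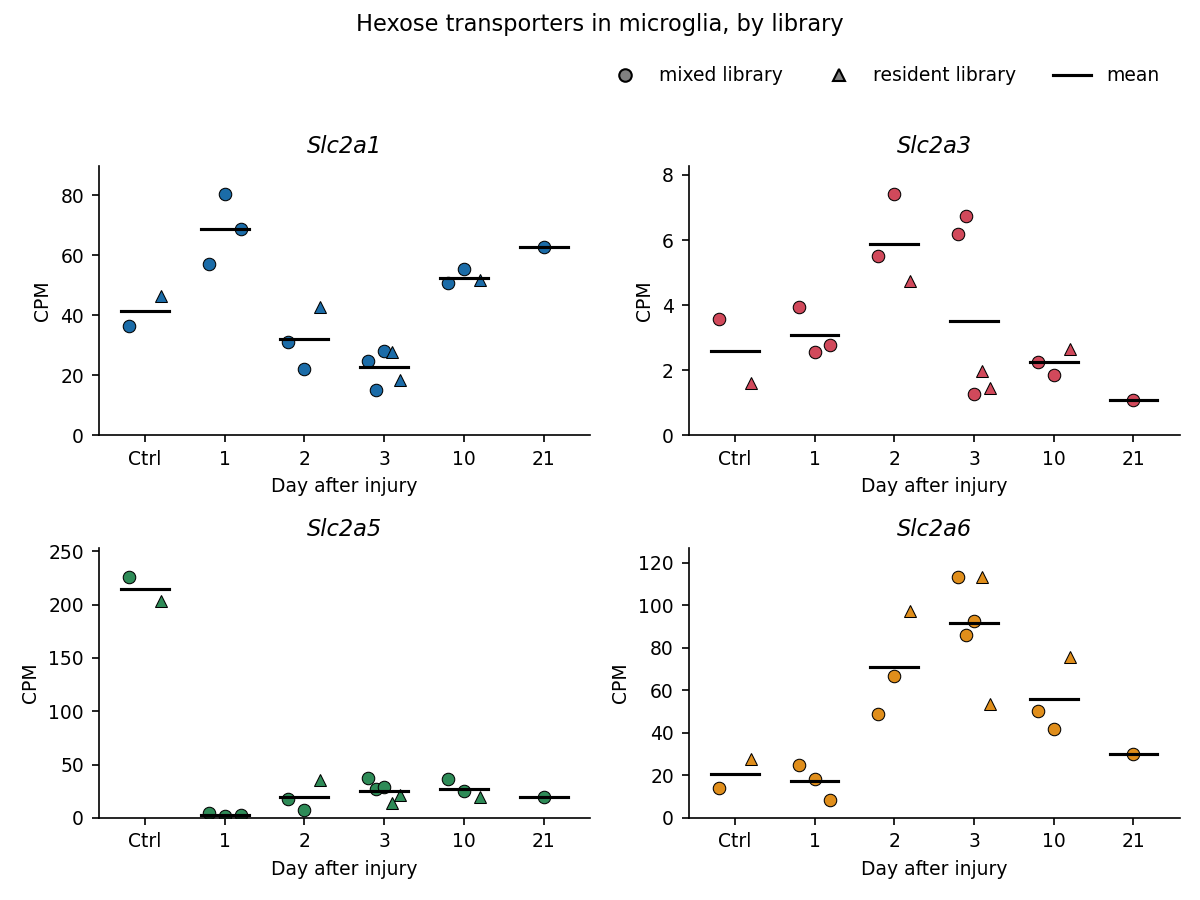
Levels of the 4 hexose transporters in microglia, in CPM on linear axes that differ between panels, by day after injury. Each point is 1 library (circles mixed, triangles resident) and each bar the mean; Slc2a5 stands at 226 and 203 CPM in the Ctrl libraries and under 5 CPM on day 1, while Slc2a6 reaches 113 CPM on day 3.

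Changes against Ctrl in microglia depend on the scale. Scaling by the trimmed mean of M-values (TMM) gave the Ctrl sums factors of 1.38 and 1.46 and the injured sums 0.771 to 1.28; on library totals alone the median of all genes was -0.73, -0.40, -0.62, -0.60 and -0.94 for D1, D2, D3, D10 and D21 against Ctrl. The fitted log2 change of Slc2a1 at D1 was 1.43 (SE 0.32) with these factors and 0.69 (SE 0.31) on library totals alone. At D10 it was 0.93 (SE 0.30) and 0.34 (SE 0.29). The direction of Slc2a1 was the same on both scales at D1, D3 and D10 and turned at D2 (0.16 and -0.23). Its D3 change, -0.30 (SE 0.29), turned to 0.34 (SE 0.60) with sequencing pool as a term and to 0.66 (SE 0.83) in the mixed libraries alone with a sex term. Slc2a6 turned at D1 (0.48 and -0.24, SE 0.46 and 0.48) but not at D3 (2.74 and 2.16) or D10 (2.05 and 1.47). Slc2a3 turned at D10 (0.37 and -0.20). Leaving out Ctrl_mixed 1 or Ctrl_resident 1 gave Slc2a6 changes of 0.05 and 1.20 at D1, 2.27 and 3.39 at D3 and 1.55 and 2.65 at D10. In the mixed libraries alone, where the sex term rests on 2 D2 libraries, Slc2a5 was -3.98 (SE 1.78) at D1 and -0.82 (SE 1.43) at D3, and without the sex term -5.49 and -2.34. On the same 2 scales Slc2a1 from D1 to D3 was -1.72 (SE 0.25) and -1.58, and Slc2a6 2.26 (SE 0.38) and 2.40. Slc2a3 from D1 to D3 was -0.34, and 0.09 without cluster 2 and 0.12 in the mixed libraries alone.

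Other values moved with these levels. The 9 microglia markers summed to 24693 and 25965 CPM in the Ctrl libraries, 4036 to 8318 CPM at D1 and 6609 to 14227 CPM in the D2, D3 and D10 libraries. Monocyte markers summed to 8.58 and 22.7 CPM in Ctrl microglia, 195 to 480 CPM at D1, 365 to 570 CPM at D2 and 155 to 662 CPM at D3, and B cell markers to 231 and 313 CPM at Ctrl and 33.7 to 60.6 CPM at D1. Neutrophil markers summed to 11.1 and 12.4 CPM at Ctrl and 15.5 to 97.2 CPM at D1, and macrophage markers to 1055 to 1235 CPM at Ctrl and 3975 to 4936 CPM at D10. All D1 microglia lay in 1 pool, with the D21 library alone beside them, and for every step between D1 and Ctrl, D2, D3 or D10 time cannot be told apart from pool. In that pool Slc2a5 was 1.71 to 4.16 CPM at D1 and 19.6 CPM at D21. Slc2a1 in the same pool was 57.1 to 80.4 CPM at D1 and 62.9 CPM at D21, the days with its highest levels in microglia. Within a pool, Slc2a5 was 226 CPM at Ctrl against 36.6 and 25.0 CPM at D10, and in another 203 CPM at Ctrl against 35.0 CPM at D2 and 19.96 CPM at D10. Slc2a6 in the same pools was 13.9 CPM against 50.04 and 41.8 CPM, and 27.5 CPM against 97.4 and 75.8 CPM. For Slc2a1 these values were 36.4 CPM against 50.7 and 55.3 CPM, and 46.4 CPM against 42.8 and 51.9 CPM. The part of marker levels in the members' levels was not tested.

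In macrophages Slc2a1 was the leading member early and lower at D10, where Slc2a6 was higher. At D1 the infiltrating libraries held 99.96 and 133 CPM of Slc2a1 and the mixed libraries 84.7 and 163 CPM. At D2 the infiltrating library held 166 CPM and the mixed libraries 47.8 and 55.7 CPM, and at D3 the infiltrating library 88.3 CPM and the mixed library 25.1 CPM. At D10 all 4 libraries lay between 18.8 and 24.4 CPM, below every D1, D2 and D3 library, and at D21 the 2 libraries held 13.2 CPM (infiltrating) and 41.8 CPM (mixed). The mean was 120 ± 34.9 CPM (n = 4) at D1 and 20.8 ± 2.48 CPM (n = 4) at D10, a ratio of 5.79, with a fitted log2 change of -2.55 (SE 0.47), and -2.50 (SE 0.40) without D2_infiltrating 1. D1, D2 and D3 overlapped, so the order of those days did not stand out of the spread. From D1 to D2 the change was -0.70 (SE 0.51), and 0.70 (SE 0.42) with sequencing pool as a term, and from D1 to D3 it was -1.17 (SE 0.54) and 0.02 (SE 0.53). Within single pools, 1 held 99.96 and 133 CPM at D1 beside 166 CPM at D2, another 84.7 and 163 CPM at D1 beside 41.8 CPM at D21, and another 47.8 and 55.7 CPM at D2 beside 25.1 CPM at D3 and 13.2 CPM at D21.

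Slc2a6 in macrophages stood at 14.6 and 3.43 CPM (infiltrating) and 4.24 and 12.2 CPM (mixed) at D1. It was 4.25, 14.3 and 6.47 CPM at D2 and 18.9 and 18.7 CPM at D3. At D10 it was 29.7 and 43.0 CPM (infiltrating) and 16.3 and 23.3 CPM (mixed), above all D1 and D2 libraries. The D21 libraries held 41.2 CPM, inside the D10 range, and 8.96 CPM, inside the ranges of D1 and D2. The fitted log2 change from D1 to D10 was 1.75 (SE 0.56), and the D10 mean (28.1 ± 11.4 CPM) was 3.26 times the D1 mean (8.61 ± 5.61).

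Slc2a5 was nearly absent: 9 UMIs in 12841 macrophages, 0 in all 4 D10 libraries and both D21 libraries, and at most 2.39 CPM (1 UMI) in a library. Slc2a3 lay between 0 and 3.31 CPM in these libraries except in D1_mixed 3, with 9.73 CPM from 4 UMIs. Both genes failed the filter on low counts in the macrophage fit and have no fitted change there.

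**Figure D2:**
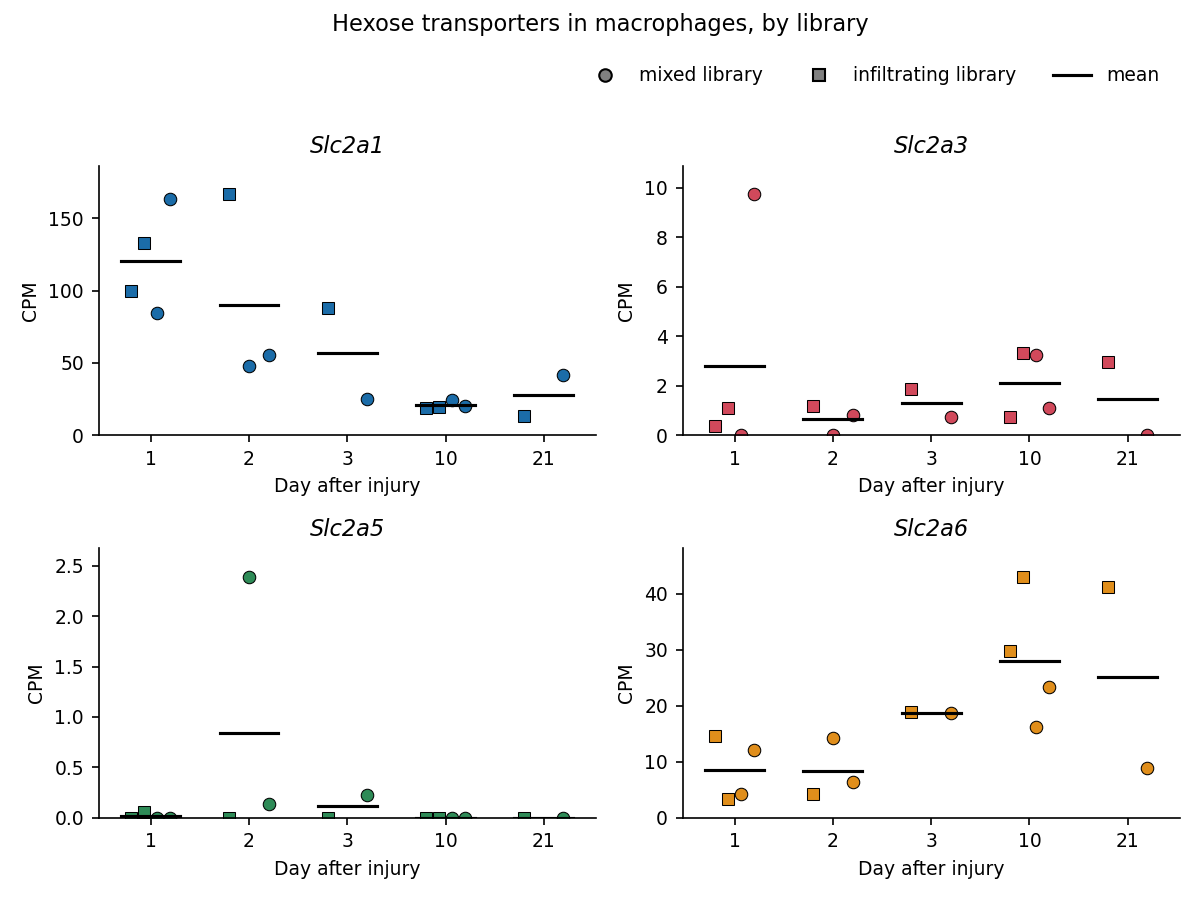
Levels of the 4 hexose transporters in macrophages, in CPM on linear axes that differ between panels, by day after injury. Each point is 1 library (circles mixed, squares infiltrating) and each bar the mean; Slc2a1 lies between 18.8 and 24.4 CPM on day 10, where Slc2a6 reaches 43.0 CPM.

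Macrophages of libraries sorted as resident, which entered no group above, held 82.7 CPM of Slc2a1 on D2, 47.9 and 55.9 CPM on D3 and 25.04 CPM on D10, the last just above the other D10 libraries (at most 24.4 CPM) and the others inside the range of their day. Their Slc2a6 was 8.84, 11.3, 13.1 and 31.5 CPM in the same order. No pool held macrophages of both D1 and D10: there, too, time and pool cannot be told apart. Summed microglia markers in macrophages were 309 to 1180 CPM at D1 and 960 to 3769 CPM at D10, and platelet and erythroid markers 537 to 6099 CPM at D1 and 23.0 to 38.0 CPM at D10. B cell markers summed to 3.37 to 25.8 CPM at D1 and 60.0 to 244 CPM at D10. Their part in the 2 transporters' levels was not tested.

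Within libraries that held at least 20 cells of both types, Slc2a5 and Slc2a6 were mostly higher in microglia, and Slc2a1 changed sides with time. Slc2a5 was higher in microglia in 13 of 14 libraries and at 0 in both types in the other, and its fitted log2 difference (macrophages minus microglia, library as block) was -6.20 (SE 0.39). Slc2a6 was higher in microglia in 11 of 14 (-1.68, SE 0.34). Slc2a1 was higher in macrophages in 8 of 14 (0.15, SE 0.24): in 2 of 2 libraries of D1, 3 of 3 of D2, 2 of 3 of D3, 0 of 4 of D10 and 1 of 2 of D21. D1_mixed 3, for example, held 68.7 CPM in microglia and 163 CPM in macrophages, and D10_mixed 2 held 55.3 and 19.97 CPM. The microglia value of D2_mixed 2 rests on 3 UMIs of Slc2a1. The fitted Slc2a1 difference turned to -0.03 with at least 50 cells per sum and to -0.05 in the mixed libraries alone. Slc2a3 was higher in microglia in 8 of 14 (-0.52 for macrophages, SE 0.47).

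**Figure D3:**
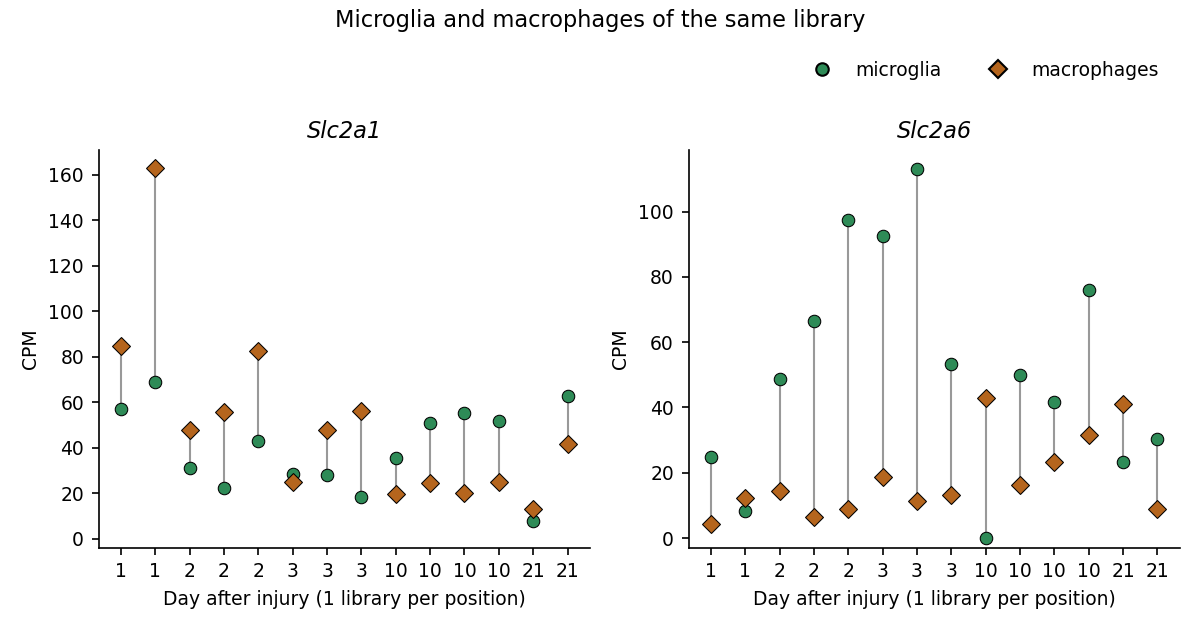
Slc2a1 (left) and Slc2a6 (right) in microglia (circles) and macrophages (diamonds) of the same library, in CPM, 14 libraries in order of day after injury. For Slc2a1 the macrophage value is the higher of the pair in 5 of 5 libraries of days 1 and 2 and in 0 of 4 of day 10. The infiltrating libraries of days 10 and 21 rest on 0 to 3 UMIs of each gene in microglia, and D2_mixed 2 on 3 UMIs of Slc2a1.

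Among all cell types, neutrophil-like cells had the highest Slc2a3 and dendritic-like cells held more Slc2a6 than macrophages. Neutrophil-like Slc2a3 was 22.9 and 16.2 CPM in the 2 D1 infiltrating libraries, 83.1 CPM in the D2 infiltrating library and 10.4 CPM (1 UMI) in D2_mixed 2. In the same 4 libraries macrophages held 0.396, 1.124, 1.19 and 0.809 CPM and dendritic-like cells 2.59 to 6.11 CPM, so neutrophil-like cells were above both in 4 of 4. Their Slc2a1 was 123, 128, 262.5 and 83.2 CPM, above dendritic-like cells in 4 of 4 libraries and above macrophages in 3 of 4. Slc2a5 had no UMI in 2116 neutrophil-like cells, which allows up to 0.623 CPM at 3 counts.

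Dendritic-like cells held more Slc2a6 than macrophages in 9 of 9 libraries, with medians of 46.0 and 18.7 CPM. Their Slc2a6 was 46.0 and 18.1 CPM at D1, 14.8 and 41.5 CPM the day after, 62.4 and 89.5 CPM at D3, 41.8 and 67.4 CPM on D10 and 52.1 CPM in the D21 library, and both D3 values lay above all D1 and D2 values. Their Slc2a1 was 80.6 and 95.2 CPM at D1, 126.5 and 23.4 CPM in the D2 libraries, 50.5 and 33.5 CPM in those of D3, 27.8 and 12.5 CPM at D10 and 58.6 CPM in the D21 library. D1 lay above D3, D10 and D21, and D21 above D10, while D2 held both the highest value and one below D3. Of 2 Slc2a5 UMIs in 2712 dendritic-like cells, none lay in the 9 sums of these libraries. In D3_conflict 1 the Slc2a1 levels were 75.1 CPM in macrophages, 46.4 CPM in dendritic-like cells and 66.7 CPM in neutrophil-like cells.

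The 16 deposited clusters split the members further. Cluster 1, led by the homeostatic microglia genes P2ry12 and Siglech, is exactly the 1887 cells of the Ctrl libraries, so cluster and condition cannot be told apart there, and it had 220 CPM of Slc2a5 with all its cells summed. Next on the same scale came cluster 4 (led by Lag3, 45.0 CPM), the small cluster 7 of 67 dividing cells (41.5 CPM), cluster 6 (21.0 CPM) and cluster 3 (led by Cst7, 19.7 CPM). Cluster 5, led by Ccl12 and Lpl, had 7.62 CPM and cluster 2, led by the metallothionein Mt2, 2.64 CPM. These sums pool days: by library mean cluster 4 held 49.3 ± 19.8 CPM (n = 6), cluster 3 23.5 ± 21.2 (n = 15), cluster 6 22.0 ± 19.9 (n = 10) and cluster 5 9.79 ± 10.7 (n = 12), while at D10 alone summed cluster 5 (27.6 CPM) lay above clusters 6 (19.96 CPM) and 3 (12.6 CPM). All 9 clusters that hold no microglia lay at 0.31 CPM or lower.

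With all cells summed, those of D3_conflict 1 included, Slc2a1 was highest in macrophage clusters 14 (led by Mmp12, 118 cells, 142 CPM from 49 UMIs), 12 (led by Dmkn and Hp, 123 CPM) and 11 (led by Cxcl3, 102 CPM) and in the neutrophil-like cluster 16 (119 CPM). In cluster 16 D3_conflict 1 held 66.7 CPM, while the summed libraries of D1 and D2 held 127 and 240 CPM. The rank of cluster 16 therefore depends on that library. The exact Poisson interval of cluster 14, 105 to 187 CPM, takes in the values of clusters 12 and 16, and its 2 libraries with at least 20 cells held 59.8 CPM (D2) and 234 CPM (D3), from 8 UMIs each. Slc2a1 was lowest in clusters 9 (led by Gpnmb, 24.1 CPM) and 10 (led by the granule gene Elane, 23.3 CPM) when summed, while by library means clusters 6 (23.2 ± 10.3 CPM, n = 10) and 3 (25.3 ± 12.7 CPM, n = 15) were as low. With all cells summed, Slc2a6 was highest in clusters 7 (99.2 CPM), 4 (64.1 CPM), 6 (62.1 CPM) and 13 (led by Ear2 and Ace, 53.5 CPM), and lowest in cluster 11 (7.25 CPM). The order was another by the mean over libraries with at least 20 cells, where cluster 5 (71.4 ± 44.4 CPM, n = 12; 41.2 CPM summed) and cluster 3 (64.2 ± 46.8 CPM, n = 15) stood beside cluster 4 (65.6 ± 28.4 CPM, n = 6) and above cluster 6 (51.4 ± 18.6 CPM, n = 10), with overlapping values. Slc2a3 was highest in cluster 16 (27.4 CPM).

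**Figure D4:**
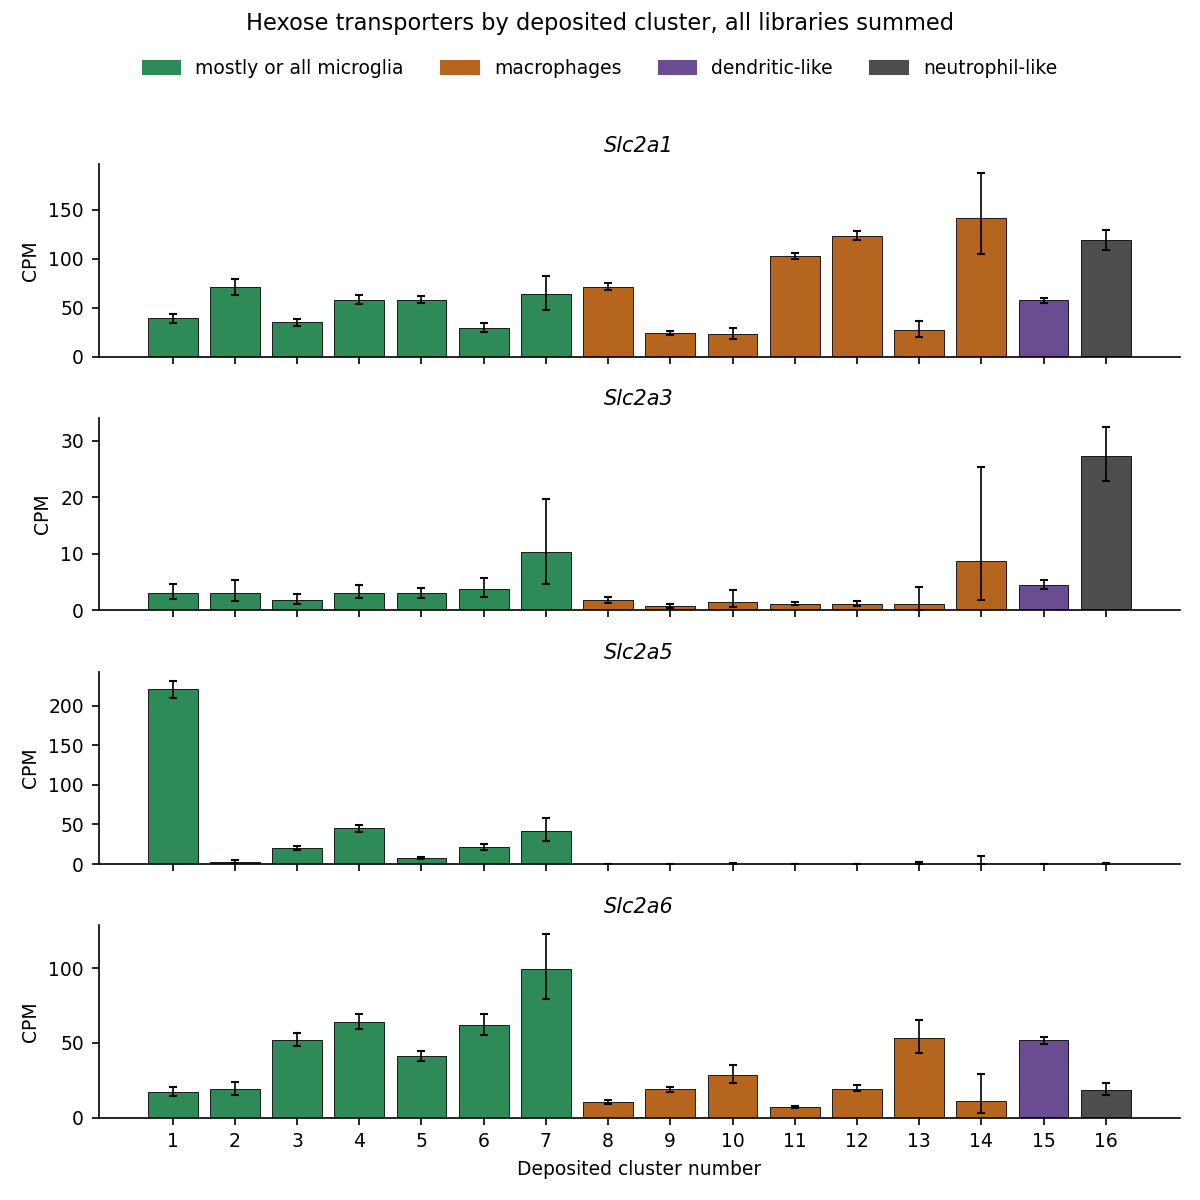
Levels of the 4 hexose transporters in the 16 deposited clusters, in CPM with all libraries summed (D3_conflict 1 included), coloured by cell type. Error bars are exact Poisson 95% intervals that cover counting error only. Slc2a5 stands at 220 CPM in cluster 1 and at 0.31 CPM or lower in clusters 8 to 16.

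The courses of Slc2a1 and Slc2a6 were followed inside cluster 5 of the microglia and cluster 9 of the macrophages, chosen after their values were seen. In cluster 5, present on all injured days, summed Slc2a1 was 62.6, 41.2, 37.0, 77.7 and 110 CPM on D1, D2, D3, D10 and D21. Slc2a6 in the same cells was 19.1, 86.6, 97.95, 94.9 and 23.3 CPM. In clusters 3, 4 and 6 its summed level was lower at D10 than at D2 and D3: 111, 93.9 and 39.4 CPM on D2, D3 and D10 in cluster 3, 111, 66.6 and 53.7 CPM in cluster 4 and 70.7, 53.8 and 37.7 CPM in cluster 6. By library, D3 and D10 overlapped in each. Cluster 3 held 62.5 to 143 CPM at D3 and 4.37 to 65.5 CPM at D10, and cluster 6 40.4 to 75.0 and 25.9 to 45.9 CPM. In cluster 4 the single D3 library (66.6 CPM) lay inside the D10 range (42.2 to 85.3 CPM). The D2 libraries, 1 in cluster 4, lay above all D10 libraries of their cluster. Within macrophage cluster 9 Slc2a1 was 44.8 CPM (1 library), 62.2 CPM (1 library), 24.2 CPM and 16.2 CPM on D1, D2, D3 and D10, and Slc2a6 1.02, 14.4, 17.7 and 28.9 CPM. Clusters 8, 11 and 12, which hold few late cells, had 96.4, 122 and 144 CPM of Slc2a1 at D1 and 48.1, 91.6 and 115 CPM at D3. Between libraries these days overlapped in cluster 11 (91.5 and 139 CPM at D1, 60.1 to 93.7 CPM at D3). They did not in cluster 8 (65.2 and 118 CPM, 27.4 and 54.9 CPM), and cluster 12 had 1 library at D3. By library, cluster 9 held 11.3 and 24.6 CPM of Slc2a1 at D3 and 13.9 to 23.3 CPM at D10, so these days overlapped, both below the single D1 and D2 libraries.

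Slc2a5 also differed between days inside single clusters. In cluster 3, whose sums mix 3312 microglia with 348 macrophages, the 5 D3 libraries held 26.6 to 47.7 CPM and the 5 D10 libraries 0 to 19.2 CPM, with no overlap. Cluster 4 held 70.8 CPM in the D2 library and 73.97 CPM in the D3 library, above the 3 D10 libraries (25.5 to 51.4 CPM) and the D21 library (39.2 CPM). In cluster 6 the D3 libraries (0 to 72.3 CPM) enclosed those of D2 (18.5 and 22.3 CPM) and of D10 (0 to 25.9 CPM). Cluster 5 held 1.56 to 3.88 CPM in the 3 D1 libraries and 10.4 and 21.96 CPM at D2. It held 0 to 18.6 CPM in the 4 D3 libraries and 6.31 and 35.6 CPM at D10. There D1 lay below D2 and D10, while D3 and D10 overlapped, with D10 the higher when summed (8.71 and 27.6 CPM).

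The share of cells with a UMI of a member was compared after thinning each cell to 1500 UMIs. This left out 1478 of 13281 microglia, 271 of 10474 macrophages, 41 of 2184 dendritic-like and 135 of 1219 neutrophil-like cells. Slc2a5 was seen in 25.2% of Ctrl microglia (50.7% before thinning), 0.667% at D1 (1.17%) and, from D2 on, 4.22% (10.8%), 3.88% (5.59%), 3.30% (7.84%) and 2.94% (6.93%). Macrophages, a type where the gene was nearly absent, gave 0.0196% after thinning and 0.0859% before. Over all cells, those of D3_conflict 1 included, the median depth before thinning was 9144 UMIs in macrophages and 3062 in microglia.

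Slc2a1 was seen in 5.47% of thinned Ctrl microglia, 8.40%, 5.71%, 3.06%, 5.99% and 7.97% of those of D1, D2, D3, D10 and D21 (14.1%, 18.3%, 15.02%, 4.99%, 14.9% and 18.9% before thinning). In thinned macrophages it was seen in 16.2%, 12.5%, 6.80% and 3.37% of those of D1, D2, D3 and D10 (55.8%, 49.3%, 26.9% and 12.8%). Slc2a6 went from 2.39% of Ctrl and 2.13% of D1 microglia to 11.5%, 10.9% and 7.23% of D2, D3 and D10 microglia (5.94%, 5.63%, 26.2%, 15.8% and 15.2%). Slc2a3 was seen in 4.24% of neutrophil-like cells and 0.216% to 0.700% of the other types (4.92%, and 1.02% to 5.13%). Cells of 1 library are not independent, so these shares carry no test.

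As shares of the UMIs of the 4 genes, the leading member in microglia changed between days. Slc2a5 made up 76.8% ± 5.52 (SD, n = 2 libraries) at Ctrl, Slc2a1 74.8% ± 10.2 (n = 3) at D1 and Slc2a6 63.3% ± 5.65 (n = 5) at D3. At D10 Slc2a6 made up 40.0% ± 9.10 and Slc2a1 38.5% ± 5.40 (n = 3), which overlapped. In macrophages Slc2a1 made up 91.7% ± 4.90 (n = 4) at D1 and 42.2% ± 10.8 (n = 4) at D10, when Slc2a6 made up 53.7% ± 12.3. These shares do not depend on the scaling between libraries.

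**Figure D5:**
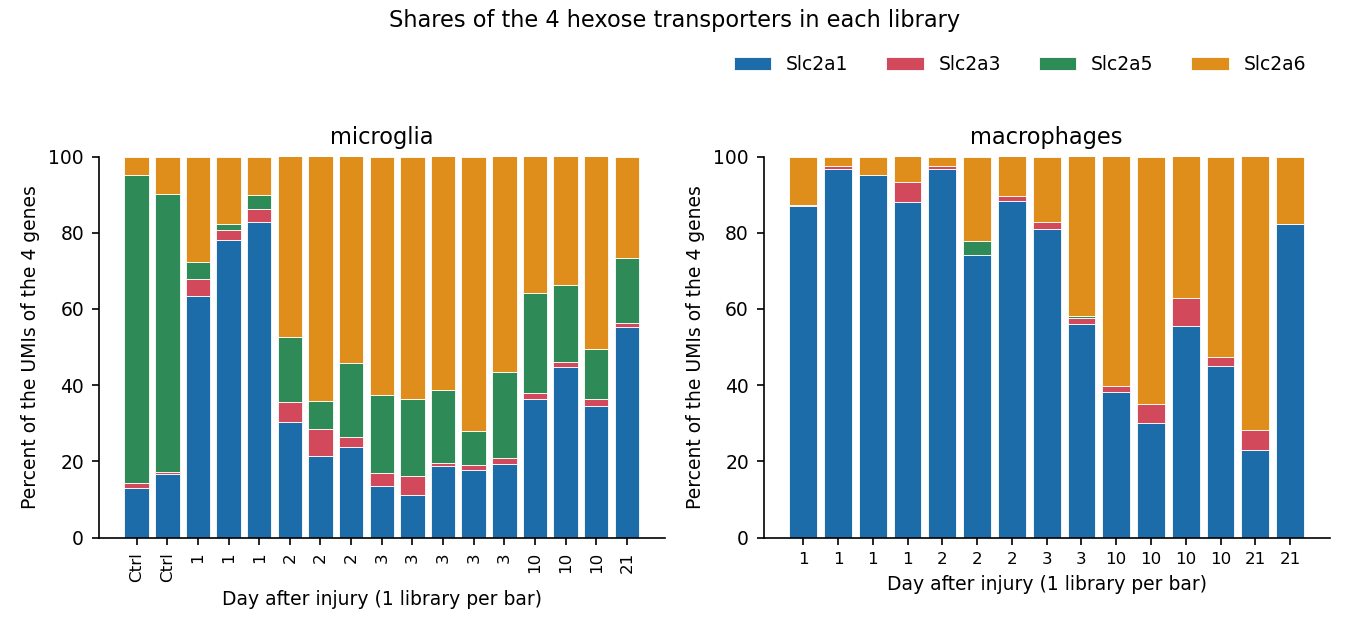
Percent of the UMIs of the 4 hexose transporters that belong to each gene, 1 bar per library in order of day after injury, in microglia (left) and macrophages (right). Slc2a5 fills 72.9% and 80.7% of the Ctrl microglia bars, Slc2a1 at least 63.3% of each day 1 microglia bar, and Slc2a6 at least 56.6% of each day 3 microglia bar.

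Sort and sex played no part in the choice of the genes and were tested in edgeR with time point as a term, and sort with sex as a further term. Between mixed and resident libraries (12 and 5 microglia sums) the log2 differences were -0.16 (SE 0.20) for Slc2a1, 0.47 (SE 0.43) for Slc2a3, 0.19 (SE 0.26) for Slc2a5 and -0.44 (SE 0.27) for Slc2a6, all at an edgeR adjusted p of 1. In that test 0.148% of 10801 genes passed. Between mixed and infiltrating libraries (8 and 7 macrophage sums) they were -0.26 (SE 0.36, edgeR adjusted p 0.816) for Slc2a1 and -0.09 (SE 0.46, edgeR adjusted p 0.958) for Slc2a6, where 0.0117% of 8577 genes, 1 gene, passed. Male minus female was 0.05 (SE 0.21), -0.37 (SE 0.46), 0.48 (SE 0.28) and 0.00 (SE 0.25) for the 4 genes in microglia and -0.59 (SE 0.41) and -0.43 (SE 0.45) for Slc2a1 and Slc2a6 in macrophages, at edgeR adjusted p of 1.00 for each. Without D2_infiltrating 1, whose sex is in doubt, the macrophage values by sex were -0.25 (SE 0.35) and -0.63 (SE 0.46), and those by sort 0.02 (SE 0.34) and -0.38 (SE 0.46), with no call. By sex edgeR called 0 genes (0%) in either cell type, with 101 and 169 genes at an unadjusted p of 0.05 or less, and DESeq2 also called 0, with 130 and 238. No member passed in any of these tests. A difference that misses the threshold is not thereby shown to be absent.

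The other 8 family genes of a fixed list were mostly scarce. Slc2a8, an intracellular hexose carrier, held 2377 UMIs and stood at 46.3 ± 0.1 CPM in Ctrl microglia, 11.0 ± 1.9 CPM at D1 and 30.0 ± 4.2 CPM at D10. Slc2a9, a urate carrier, held 594 UMIs, and Slc2a12 held 153. Slc2a13, the proton myo-inositol carrier, held 11, the insulin-responsive Slc2a4 held 2, Slc2a10 held 1, and Slc2a2 and Slc2a7 held none, which allows up to 0.0581 CPM of Slc2a2 in microglia at 3 counts. Slc2a8 fell in microglia at D1 (log2 change -1.38, SE 0.39, edgeR adjusted p 0.00820) and was lower in macrophages than in microglia (-1.07, SE 0.25, edgeR adjusted p 0.00240). The D1 call of Slc2a8 was lost without Ctrl_resident 1 (-1.40). Slc2a9 (0.21, SE 0.45, and -0.50 on library totals) and Slc2a12 (-2.12, SE 1.27) did not pass at D1, and the other 5 were not tested for want of counts.

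Beyond the transporters, 75 genes of glucose handling were taken from a fixed list: the other family genes, trafficking regulators, hexokinases, glycolysis, glycogen, pentose phosphate, fructose and polyol enzymes, lactate and pyruvate carriers and hypoxia regulators. In microglia at D1 against Ctrl, 36 of 63 tested genes passed an edgeR adjusted p of 0.05, 30 higher and 6 lower, where 23.9% of all 10801 genes were higher and 22.7% lower. The median log2 change was 1.04 over the list and -0.01 over all genes. On library totals alone, 18 were higher and 11 lower, with medians of 0.31 and -0.73, against 11.9% and 40.6% of all genes. At D3, 25 were higher and 5 lower (20.1% and 17.6% of all genes), and 17 and 13 on library totals (10.9% and 36.6% of all genes). At D10, 14 were higher and 1 lower (8.06% and 2.22%), and 11 and 4 on library totals (4.57% and 20% of all genes). The D10 count was 15, but 2 without Ctrl_mixed 1 (2.37% of all genes) and 8 without Ctrl_resident 1 (4.66%). In the mixed libraries alone the D1, D3 and D10 counts of 62 list genes were 13, 12 and 2 with a sex term, where 10.8%, 5.63% and 0.637% of all genes passed. Without the sex term they were 32, 20 and 10 (39.6%, 22.3% and 3.35%). With sequencing pool as a term 3 passed at D3 (2.36% of all genes) and 23 at D10 (22.3%).

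The glycolytic enzymes, the role with the most genes, gave 11 of the 36 list calls at D1 and 8 of the 15 at D10. At D1, 10 of 16 were higher and 1 lower, among them the pyruvate kinase gene Pkm (3.76, SE 0.36, edgeR adjusted p 2.99e-06) and the phosphoglycerate kinase gene Pgk1 (3.40, SE 0.39, 9.53e-06). Pkm remained higher at D3 (2.94, SE 0.33, edgeR adjusted p 1.30e-05), as did the phosphofructokinase gene Pfkp (3.48, SE 0.63, 5.11e-04), and the aldolase gene Aldoa was higher at D10 (2.21, SE 0.27, 5.76e-05). These 4 were also called on library totals, for example Pkm at D1 by 3.01 (SE 0.32). Pfkfb4, which sets the level of an activator of phosphofructokinase, fell at D1 (-2.70, SE 0.43, edgeR adjusted p 1.29e-04) and D3 (-1.27, SE 0.39, 0.0170), and at D3 it did not pass without Ctrl_mixed 1 (-1.15) or Ctrl_resident 1 (-1.37). In the mixed libraries alone with a sex term it stood at 4.59 (SE 6.71) at D1 and 5.97 (SE 5.52) at D3.

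Of 10 hypoxia-linked genes 2 were higher and 1 lower at D1, shares no larger than those of all genes (23.9% and 22.7%). Adm, the adrenomedullin gene, rose by 7.72 (SE 1.90, edgeR adjusted p 0.00361). The oxygen sensor Egln3 was higher at D3 (2.94, SE 0.77, edgeR adjusted p 0.00688) and D10 (3.63, SE 0.73, 0.00330), and Hif1a, the oxygen-regulated factor that drives many glycolytic genes, at D10 (1.98, SE 0.35, 0.00131). Without Ctrl_mixed 1 the calls of Adm (6.05) and of Egln3 at D3 (3.40) and D10 (4.12) were lost, and without Ctrl_resident 1 those of Egln3 (2.68 and 3.37). Txnip, whose product withdraws glucose carriers from the surface, stood at 417 and 454 CPM in Ctrl microglia and 62.6 to 92.4 CPM at D1. It fell at D1 (-1.89, SE 0.46, edgeR adjusted p 0.00308), D3 (-2.72, SE 0.40, 1.07e-04) and D10 (-1.50, SE 0.44, 0.0342), and on library totals by more. Its D10 call was lost without either Ctrl library or any 1 of the 3 D10 libraries (-1.35 to -1.66).

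Hexokinases trap glucose in the cell. Hk3 was higher at D1 (1.22, SE 0.35, edgeR adjusted p 0.00851), a call that was lost on library totals (0.50, SE 0.35, 0.247) and without Ctrl_mixed 1 (0.91). Hk2, the most abundant at 314 and 529 CPM in the Ctrl libraries, gave -1.07 (SE 0.52, edgeR adjusted p 0.0991) at D1 and passed as lower on library totals (-1.80, SE 0.52, 0.00778). Hk1 gave 0.49 (SE 0.52, edgeR adjusted p 0.459), and -0.24 on library totals. Of the monocarboxylate carriers, the lactate exporter gene Slc16a3 was higher at D1 (1.54, SE 0.31, edgeR adjusted p 8.15e-04) and D3 (1.02, SE 0.29, 0.0107), and Slc16a7 was lower at both (-1.996, SE 0.40, 7.22e-04, and -1.81, SE 0.39, 0.00191). The D3 call of Slc16a3 was lost on library totals (0.43) and without Ctrl_mixed 1 (0.65), and Slc16a7 stood at 5.62 (SE 6.11) at D1 in the mixed libraries alone with a sex term.

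In macrophages from D1 to D10, 20 of 57 list genes passed, 1 higher and 19 lower, where 7.31% of all 8577 genes were higher and 7.04% lower. The list median was -0.76 and that of all genes 0.01, and on library totals 1 was higher and 20 lower (5.79% and 5.95% of all genes). All 9 called of 14 glycolytic enzymes fell, and so did all 4 called of 10 hypoxia genes, with Vegfa (-4.01, SE 0.93, edgeR adjusted p 0.0134) and Ankrd37 (-2.49, SE 0.79, 0.0493) among them. Slc16a3 fell by 2.69 (SE 0.45, edgeR adjusted p 0.00288), Hk3 by 1.61 (SE 0.32, 0.00662) and Hk1 by 1.51 (SE 0.40, 0.0246), while Hk2 (0.51, SE 0.32, edgeR adjusted p 0.311) and Txnip (0.36, SE 0.48, 0.659) did not pass. Slc16a7 was the gene called higher (1.99, SE 0.46, edgeR adjusted p 0.0126). Without D1_infiltrating 2, 10 list genes passed in place of 20 (4.57% of all genes), and in the mixed libraries alone with no sex term 13 of 55 (15.6%). Without D1_infiltrating 2, Slc16a7 (2.04), Hk1 (-1.54) and Ankrd37 (-1.31) did not pass. Ankrd37 also lost its call without any 1 of 8 other libraries and on library totals, and Hk1 without any 1 of 4 others (-1.26 to -1.50).

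Between macrophages and microglia of the same libraries, 23 of 58 list genes passed, 11 higher in macrophages and 12 lower, where 15.6% of all 9596 genes were higher and 13% lower. In the mixed libraries alone 11 of 62 passed (14.3% of all genes). Pfkp (2.74, SE 0.23, edgeR adjusted p 2.64e-08), Vegfa (2.68, SE 0.44, 9.03e-05) and Ndrg1 (2.66, SE 0.32, 2.51e-06) were the highest in macrophages. Ldhb, a lactate dehydrogenase subunit (-2.96, SE 0.25, edgeR adjusted p 2.27e-08), Khk, the ketohexokinase that phosphorylates fructose (-1.10, SE 0.28, 0.00487), and Slc2a8 were lowest. All 3 tested genes of fructose and polyol metabolism, Khk among them, were lower in macrophages, where Slc2a5 was nearly absent. Hk1 was higher in macrophages (1.11, SE 0.19, edgeR adjusted p 1.27e-04), Hk2 lower (-0.65, SE 0.16, 0.00410) and Txnip higher (0.62, SE 0.15, 0.00387), while Hk3 (0.42, SE 0.16, edgeR adjusted p 0.0560) and Slc16a3 (-0.48, SE 0.26, 0.185) did not pass.

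Across the 16 clusters, likeness to each member was measured as Pearson's r of log2(CPM + 5) over the 8886 genes that reached 20 CPM in at least 1 cluster. The clusters share libraries and depth, so r is a description. Slc2a5 was most like Agmo (0.99), Naalad2, Mymk, Asap3 and Adgrg1 (0.98 each), all of which were highest in cluster 1. Slc2a1 was most like Maff (0.92), Osm (0.91), Alkbh5 (0.91), Parp10 (0.91) and Efhd2 (0.90), and Slc2a3 most like Tmem40 (0.91), Rinl (0.89), Retn (0.87), Dab2ip (0.87) and Rab15 (0.87), highest in cluster 16. By rank over the clusters (Spearman's rho) the genes named for Slc2a3 gave, in turn, 0.63, 0.86, 0.22, 0.71 and 0.26. Slc2a6 had no gene as close: Lrmp (0.81), Serhl (0.80), Mmd (0.77), Cox7a2l (0.77) and Acsl5 (0.76). Among the members r was 0.47 for Slc2a1 with Slc2a3, 0.41 for Slc2a5 with Slc2a6, 0.09 for Slc2a3 with Slc2a6, 0.05 for Slc2a3 with Slc2a5, -0.27 for Slc2a1 with Slc2a5 and -0.46 for Slc2a1 with Slc2a6.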

How the data were processed

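The deposited files used hold, for each of 25 libraries, the raw count of UMIs for every gene in every cell, beside the authors' table of cell type and cluster codes; reads were processed with Cell Ranger 3.1.0 against GRCm38 (mm10), per the submitters' processing notes. How doublets or free RNA were treated is not given in the sources used here, and neither a doublet caller nor a correction for free RNA was run. Other details of alignment and of strand in counting are not given in the sources used here.

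Counts were summed per library and cell type (at least 20 cells). Fits used edgeR 4.0.16 in R 4.3.3 (TMM scaling, filterByExpr, quasi-likelihood test, Benjamini-Hochberg adjustment over all genes, threshold 0.05), with time point and sex as terms; sort was added where sort was tested, and the library was the block between cell types. Microglia gave 17 sums of 135097 to 7794902 UMIs and macrophages 15 of 235999 to 22068469. DESeq2 1.42.0 was an alternative. The fits were also run on simulated counts in which as many genes were changed up as down. Those counts hold no pools and no shift in scale between Ctrl and injured libraries, so they do not test the fits against either. Replicates are separate libraries of 1 to 3 pooled mice; whether mice of different libraries were handled apart is not stated, so p-values measure the spread between libraries. Intervals and floors cover counting error only (exact Poisson or Clopper-Pearson, 95%; a floor is 3 counts). The members and the lists were chosen with earlier results of these data known.

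Named genes were the 4 members, the other Slc2a genes of the list, Hk1, Hk2, Hk3, Txnip and Slc16a3, up to 3 list genes with the largest rise and up to 3 with the largest fall per comparison, and the 5 genes most like each member over the clusters. Alternatives were other scaling, no expression filter, at least 50 cells, no cluster 2, sequencing pool as a term, mixed libraries alone, the D3_conflict library added, other thinning and each library left out. Mixed libraries alone with no sex term, numbered mixed libraries with no block term and library totals alone were chosen after seeing the data. Symbols were matched to GENCODE M21 for 22226 of 22439 genes.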

Additional observations from a re-analysis of the deposited data

Results flagged for a closer look

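Of 11 groups of 4 or 5 libraries in which a transporter's level was checked for a value far from the others, 2 had one. Slc2a3 in D1 macrophages stood at 9.73 CPM in D1_mixed 3, from 4 UMIs, where the nearest other library held 1.124 CPM. Slc2a5 in D1 macrophages stood at 0.0624 CPM in D1_infiltrating 2, from 1 UMI, where the other 3 libraries held 0. A single UMI beside 3 libraries at 0 always gives the widest possible gap, so the second says nothing beyond that UMI, and the rate of about 1 in 20 groups that chance gives does not apply to it.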

How the results depend on the processing

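Of 379 log2 changes of the 4 transporters under other settings, 336 moved by less than the spread between libraries and 23 turned their direction. With single libraries left out 661 of 673 moved by less than the spread and 6 turned. The differences by sort and sex changed no call in 90 settings and 196 leave-outs. By sort DESeq2 called 59 genes of microglia and 104 of macrophages, where edgeR called 16 and 1. In the mixed libraries alone with a sex term, the changes against Ctrl at D1, D3 and D10 were 2.40, 0.66 and 1.84 for Slc2a1 and -3.98, -0.82 and -0.82 for Slc2a5. Slc2a3 gave 0.37 at D1 and -0.39 at D10, and Slc2a6 in macrophages reversed to -0.52 from D1 to D21. There the glucose-handling counts were 13, 12 and 2, and 11 between cell types (14.3% of all genes passed); Pfkfb4 (4.59 and 5.97) and Slc16a7 (5.62 and 5.63) reversed at D1 and D3. With no sex term Slc2a6 gave 1.01 at D1 and 3.34 at D3, and 13 list genes passed in macrophages from D1 to D10 (15.6% of all genes). On library totals alone Slc2a1 gave 0.69, -0.88 and 0.34 at D1, D3 and D10, Slc2a6 -0.24, 2.16 and 1.47, Slc2a3 0.37 at D1 and Slc2a5 -6.43 at D1. With sequencing pool as a term 3 list genes passed at D3 and 23 at D10, Slc2a1 gave 0.34 and Slc2a5 -1.25 at D3, and Slc2a1 in macrophages from D1 to D3 reversed to 0.018. DESeq2 gave -5.44 for Slc2a5 between cell types. The cause of these shifts was not tested.

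With single libraries left out, Slc2a6 in microglia ranged from 0.052 to 1.20 at D1, 2.27 to 3.39 at D3 and 1.55 to 2.65 at D10, and Slc2a3 from -0.027 to 1.00 at D10. The list counts ranged from 25 to 38 at D1, 20 to 37 at D3, 2 to 17 at D10, 10 to 23 in macrophages and 19 to 25 between cell types, where 30.5% to 48.7%, 17.1% to 40%, 2.37% to 11.9%, 4.57% to 18.5% and 23.7% to 32.2% of all genes passed. Of 120 shares of cells, 93 moved beyond their interval when cells were thinned to 3000 UMIs or not thinned. Thinning to 3000 UMIs also left out more cells, 6469 of 13281 microglia and 1038 of 1219 neutrophil-like cells.

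Replicate numbers of the mixed libraries were tried as a replicate block. Same-numbered libraries of different days had correlations of -0.197 to 0.115, and libraries with different numbers -0.209 to 0.209. The values of D10_mixed 1 and D10_mixed 2 mirror each other by construction, since they are deviations from the mean of that pair. This check cannot tell whether the numbers mark a shared origin. With the block 1260 genes passed from D1 to D3 and 827 from D3 to D10, against 1239 and 129 in the same libraries with no block. The changes with the replicate block were -1.72 for Slc2a1, 0.19 for Slc2a3, 3.23 for Slc2a5 and 2.47 for Slc2a6 from D1 to D3. From D3 to D10 they were 1.30, -1.16, -0.0049 and -1.31. A pool term could not be fitted for microglia of D1 against Ctrl or D3, for macrophages from D1 to D10 or for sort in microglia, and the D3_conflict library had too few microglia to enter the comparison of cell types.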
